A study of Mus musculus with 15 samples.

Results

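A set of 160 transcripts in mouse dental mesenchymal cells (mDMCs) fell within the first 12 h of culture and rose again by 48 h, not always to the 0 h level. The members were chosen from the scores themselves. On the scale of log2(score + 1), the mean at 12 h lay at least 1 below the means at both 0 h and 48 h, and the mean score at 0 h was at least 100. These conditions were met by 160 of 12089 transcripts in the table, and by 160 of the 10844 transcripts with a mean score of at least 100 at 0 h, which is 1.48%. Another 1248 transcripts with that minimum fell by at least 1 from 0 h to 12 h without meeting the condition at 48 h, of 1408 that fell. The 160 transcripts belonged to 160 different genes, of which 158 (98.8%) were protein coding, beside 96.9% of the 10844. By transcript, 142 (88.8%, beside 87.8%) were annotated as protein coding, and each value is that of 1 transcript, not of the whole gene. Of the members described further on, Ptprv and Arrdc3 are retained-intron transcripts, Loxl3 and Plcxd3 processed transcripts, and Nipal3, Sgsh, Sema3b and Selenbp1 targets of nonsense-mediated decay by annotation.

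The mDMCs came from the mesenchyme of mandibular first molar germs of ICR mouse embryos at E14.5, dissociated with trypsin. Libraries of freshly isolated cells (0 h, n = 3) were compared with cells kept in FBS-supplemented DMEM for 12 h (n = 2), 24 h (n = 3), 36 h (n = 3) and 48 h (n = 3), and 1 library was made from intact dental mesenchyme tissue. The labels name no transgene, deletion or added agent for any of them. Nothing in the labels says whether replicates were separate litters or cultures, so p-values measure only the spread between these libraries, which may be technical.

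Cells taken from an embryo into serum-containing medium pass from a tissue with neighbours, matrix and blood-borne cells to a flat surface with abundant growth factors. Serum is known to set off immediate early genes and to silence genes that FoxO factors keep on in quiescent cells, and a change of medium can reset the circadian clock. Hypoxia-inducible genes, through which cells switch toward glycolysis and lactate export, respond to the oxygen that reaches cells, which depends on how densely they grow.

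Every library had the same median score of 721 and the same largest score of 127101, so the scores are positions on a common scale and not read counts, and the depth behind them is unknown. All 12 markers of dental mesenchyme were measured. Their summed score ranged from 84853 to 102971 at 0 h, from 64386 to 79047 at 12 h and from 48494 to 57599 at 48 h. Red cell markers (8 of 14 measured) summed to between 98075 and 151040 at 0 h and between 365 and 457 at 12 h, and endothelial markers (12 of 15 measured) to between 12110 and 14419 and between 2636 and 2997. These sums stayed low at 48 h, at 52 to 168 for red cells and 2093 to 3636 for endothelium, and none of the 160 members was among these markers. The members did include Ecscr, Cd34 and Gja5, which endothelium is known to express and which are named after their values were seen. Ecscr scored 185, 293 and 173 at 0 h, 31 and 20 at 12 h, then 76, 181 and 130 at 48 h. These genes had no part in the endothelial sum, and how much of their scores came from endothelium was not tested. In bulk libraries, fewer cells of a type and less RNA per cell cannot be told apart. The 36 h libraries of replicates 1 and 2 lay closer to each other than any other replicate pair, with a standard deviation of log2 differences over transcripts of 0.229, beside 0.306 to 0.485 for the other 12 pairs. Whether they came from 1 sample cannot be told from the scores, and values with their mean taken as 1 replicate are given where they change the call of a named member tested from 24 h to 36 h.

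The promoters of 3 members are shown because each stands for one of the gene groups described further on, the arrestin-fold proteins repressed by serum, the clock output factors and the hypoxia-inducible genes. They were chosen after their values were seen, among members whose promoter held the E-box CACGTG, a hexamer read by clock and other basic helix-loop-helix factors and the same on both strands. Each run covers 250 bases before to 50 after the gene start in RefSeq (GRCm38.p6), is written 5′ to 3′ on the strand of the gene, and has the E-box in capitals. Arrdc4 is from chr7:68749189-68749488 on the minus strand, Tef from chr15:81802423-81802722 on the plus strand, and Bnip3 from chr7:138909457-138909756 on the minus strand. The first base of the E-box lay at -193, -127 and -108 from the RefSeq start. The measured Tef transcript starts upstream of the run shown, so that its E-box lies 125 bases after that start, and those of Arrdc4 and Bnip3 lie at -190 and -108 from theirs.
Arrdc4: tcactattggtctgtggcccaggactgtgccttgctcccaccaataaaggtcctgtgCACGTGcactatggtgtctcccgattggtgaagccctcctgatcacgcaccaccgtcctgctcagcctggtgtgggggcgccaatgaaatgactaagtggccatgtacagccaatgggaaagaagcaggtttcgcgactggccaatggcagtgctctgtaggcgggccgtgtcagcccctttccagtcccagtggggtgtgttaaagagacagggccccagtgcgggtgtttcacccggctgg
Tef: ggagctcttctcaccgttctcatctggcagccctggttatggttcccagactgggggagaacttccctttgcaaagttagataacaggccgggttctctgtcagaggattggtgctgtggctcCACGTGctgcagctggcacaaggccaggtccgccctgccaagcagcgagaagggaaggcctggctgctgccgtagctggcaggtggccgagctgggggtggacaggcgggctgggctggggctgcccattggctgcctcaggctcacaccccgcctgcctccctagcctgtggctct
Bnip3: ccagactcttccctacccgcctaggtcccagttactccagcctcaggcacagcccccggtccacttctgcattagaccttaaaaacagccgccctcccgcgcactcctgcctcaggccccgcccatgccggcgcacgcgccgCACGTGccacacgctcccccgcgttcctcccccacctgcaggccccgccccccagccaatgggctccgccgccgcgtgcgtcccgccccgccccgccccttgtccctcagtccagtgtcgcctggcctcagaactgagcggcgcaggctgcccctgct
Of the 160 members, 120 matched an entry of the promoter table, whose start lay within 250 bases of the transcript start for 98 and farther away for 22, and 13 of these (10.8%) held the E-box. The hexamer stood in 7.15% of all 32851 promoters in the table and in 10.5% of the 8398 promoters of transcripts with a mean score of at least 100 at 0 h, so the share among members was close to that of expressed genes. The CCAAT box, read on both strands, stood in 39.2% of member promoters and in 39.5% of promoters of expressed transcripts. TATAAA was found in 13 member promoters (10.8%), beside 6.35% of the expressed ones, and TGANTCA, the AP-1 site with any central base, in 1 (0.833%), beside 3.88%. TTTCCCG, part of the E2F site (7.5%, beside 6.45%), TTTGAA (11.7%, beside 11.7%) and the forkhead core TGTTTAC (0.833%, beside 2.32%) completed the motifs searched. ACGTG, which overlaps the E-box and was added after the values were seen, stood in 24.2% of member promoters and 26.6% of the expressed ones. A match is only a run of letters in this window.

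The members fell deeply, and 44 of the 160 were still at least 1 below the 0 h mean at 48 h. The median difference between 12 h and 0 h was -1.85 on the log2 scale (quartiles -2.68 and -1.40), and the lowest was -6.18. Between 12 h and 48 h the median difference was 1.40 (quartiles 1.2 and 1.84), with a highest value of 5.76. Over all 10844 transcripts with the 0 h minimum both medians were -0.03. These values follow from the way the members were chosen and are a description. Both 12 h libraries lay below all 0 h and all 48 h libraries in 153 members (95.6%), beside 10.4% of the 10844. The other 7 overlapped in at least 1 library.

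The 12 h scores of the members were low. The median of the 0 h mean scores was 392, beside 874.5 over the 10844, and 52 members had a 12 h mean under 50. Only 10 members kept a 12 h mean above 1000. Of the 160, 4 were listed at 0 in a 12 h library and 5 in any library, and fold changes of such low members depend on the 1 added before the logarithm. Member transcripts had a median length of 2564.5 bases (2949 over all), a median GC content of 53.1% (49.95%) and a median of 8 exons (8).

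**Figure D1:**
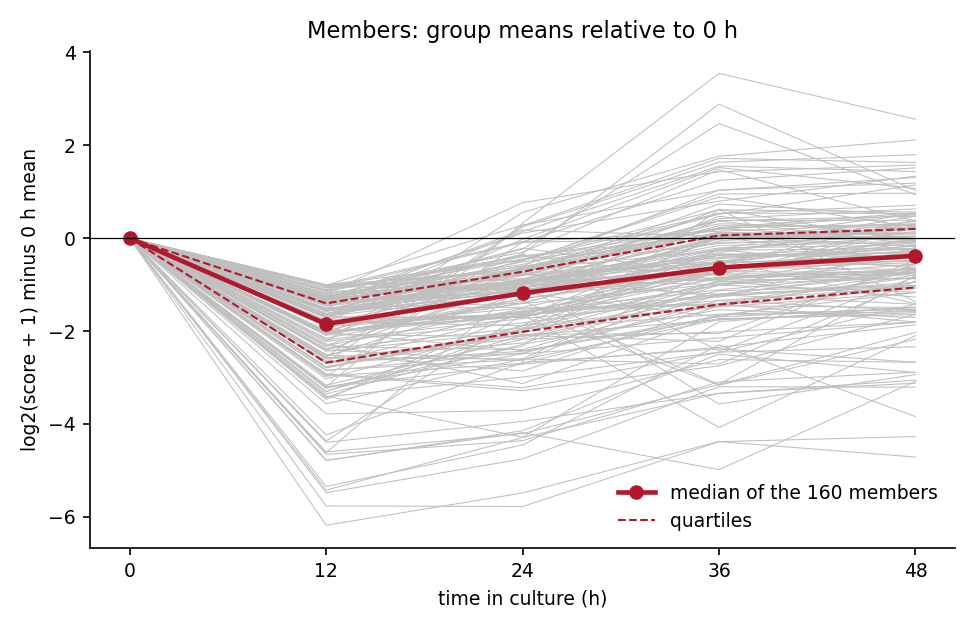
Mean log2(score + 1) of each of the 160 members relative to its own 0 h mean (vertical axis) against time in culture in h (horizontal axis), 1 grey line per member, with the median (red points) and quartiles (dashed). The median goes from -1.85 at 12 h to -1.19 at 24 h, -0.63 at 36 h and finally -0.38 at 48 h, and single members end between -4.71 and 2.56.

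By 48 h the median member stood 0.38 below its 0 h level on the log2 scale (-0.38, beside -0.04 over all). A mean at 48 h within 1 of the 0 h mean was found for 103 members (64.4%, beside 71.8% of all). Another 44 members (27.5%, beside 17.2%) remained at least 1 below, and 13 (8.12%, beside 11.0%) stood at least 1 above. This split uses the means that chose the members, so the depth of fall and rise in each part is largely set by the rule, and the medians are a description. At 12 h they were -3.07 for the 44, -1.58 for the 103 and -1.51 for the 13, and the rises by 48 h were 1.32, 1.34 and 2.87.

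**Figure D2:**
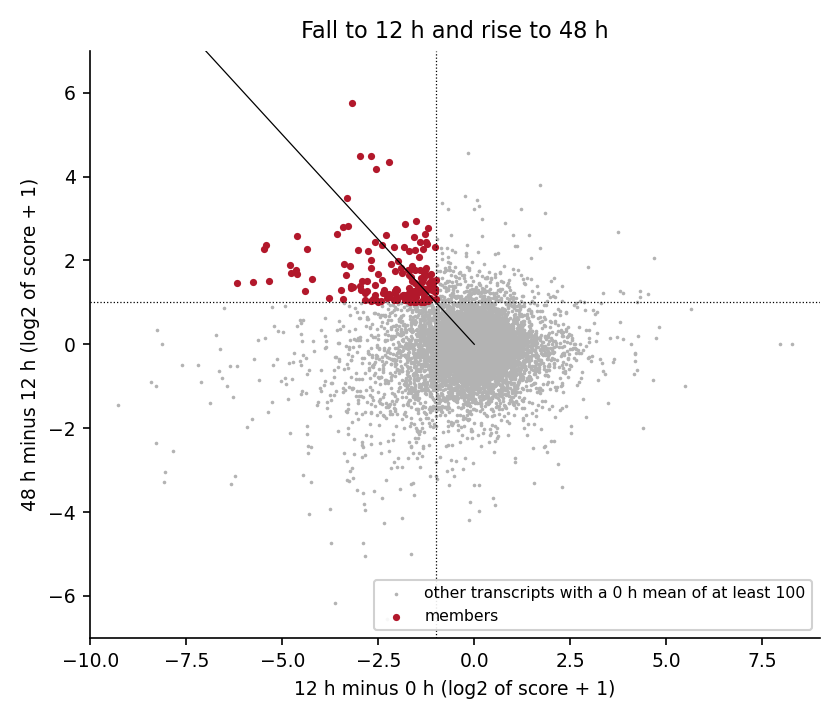
Difference between 12 h and 0 h (horizontal axis) and between 48 h and 12 h (vertical axis), both in log2(score + 1), for the 160 members (red) and the other transcripts with a 0 h mean of at least 100 (grey); dotted lines mark the thresholds of 1 and the solid line a full return to the 0 h level. Most members lie below the solid line, with 53 above it, and the highest point is Scx with a rise of 5.76.

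The threshold cut through a continuous range. Just inside it lay Aifm2, an oxidoreductase of the plasma membrane that guards against lipid peroxidation, with a dip (the smaller of the fall and the rise) of 1.0027, Zbtb38, a methyl-DNA-binding zinc finger protein, with 1.0024, and Klhl36 with 1.0008. Just outside lay Entpd1, an ectonucleotidase, with 0.9923, the monoamine oxidase Maob with 0.9900 and the lipid transporter Abca7 with 0.9882. A further 41 transcripts dipped as far but had a 0 h mean under 100. Leaving out 1 library of 0 h, 12 h or 48 h at a time left 100 of the 160 members in the set under all 8 omissions.

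No 24 h or 36 h library entered the rule. The step between these times is the only replicated one that uses none of the rule's libraries. It lies within the span from 12 h to 48 h, over which the rule required a rise of at least 1. More rises than among all transcripts are therefore partly built in, and the excess itself is a description. Most members were higher at 36 h than at 24 h, by the mean in 144 of 160 (90%, beside 46.2% of all). The median difference was 0.79 ± 0.08 on the log2 scale (SD over libraries, n = 3 and 3), beside -0.03 over all transcripts with the 0 h minimum. At an adjusted p below 0.05, limma called 87 of 160 members higher at 36 h (54.4%), beside 10% of the 12079 transcripts tested. It called 1 member, Sema7a, lower (0.625%, beside 9.64%). By the threshold that the study used, an unadjusted p below 0.05 and a fold change above 2, 57 members were higher (35.6%, beside 2.41%) and 2 were lower (1.25%, beside 1.76%). With the mean of 36 h replicates 1 and 2 taken as 1 replicate, 65 members were higher at the adjusted p, beside 5.15% of all transcripts, and 0 were lower. At the study threshold that setting called 53 higher and 2 lower, beside 2.31% and 1.65% of all. All 36 h libraries lay above all 24 h libraries in 106 members (66.2%, beside 21.6% of the 10844), and below them in 3 (1.88%, beside 26.2%).

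**Figure D3:**
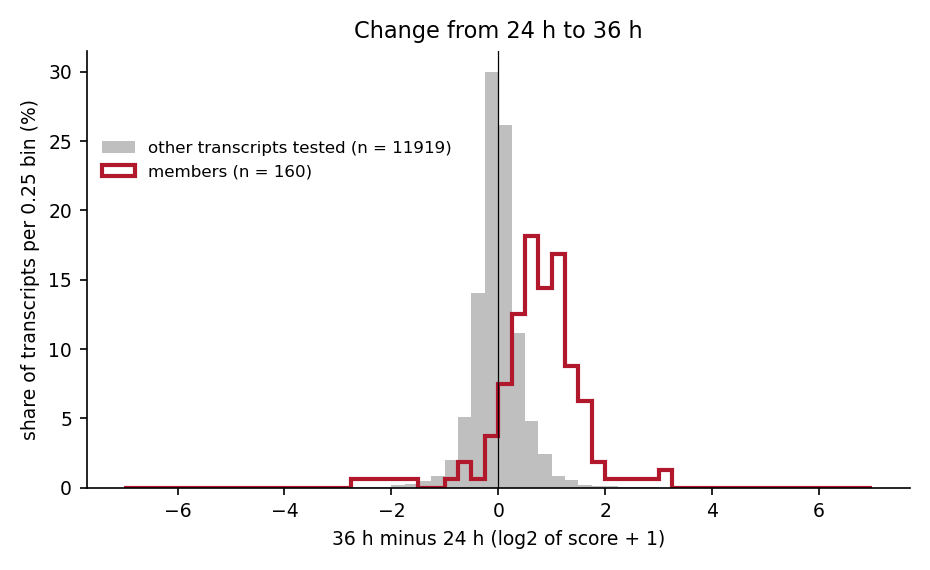
Share of transcripts (vertical axis, %) by the difference between 36 h and 24 h in log2(score + 1) (horizontal axis, bins of 0.25), for the 160 members (red outline) and the other 11919 transcripts tested (grey). The members centre at 0.79 and the other transcripts near 0.

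The next values rest on the 12 h and 48 h means that chose the members, so they are a description and nothing is read from their size against all transcripts. At 24 h the members had covered a median of 39.4% ± 3.4 (SD over the 24 h libraries, n = 3) of the way from the 12 h to the 48 h mean, and at 36 h 88.2%. The 24 h mean was above the 12 h mean in 146 members, and all 24 h libraries lay above both 12 h libraries in 97 (60.6%, beside 19.4% of all). The lowest of the 5 means was at 12 h for 143 members, at 24 h for 14 and at 36 h for 3. The means rose in the order 12, 24, 36 and 48 h in 88 members (55.0%, beside 14.5% of all). In 92 members the 24 h mean was still at least 1 below the 0 h mean, and in 57 the 36 h mean.

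The 0 h libraries took part in the choice of members, so comparisons of the tissue with them are a description. The tissue library, which had no replicate and was not used in the choice, had a median difference from the 0 h mean of 0.11 on the log2 scale, beside -0.02 over all. It lay within the 0 h range for 57 members (35.6%, beside 37.9% of all), below it for 43 (26.9%, beside 32.9%) and above it for 60 (37.5%, beside 29.2%). In the tissue 5 members stood at least 1 below the 0 h mean (3.12%, beside 0.904% of all) and 6 at least 1 above (3.75%, beside 1.4% of all).

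The largest dip belonged to Pgf, which encodes placental growth factor, a ligand of the VEGF family. Its scores were 349, 320 and 305 at 0 h, 35 and 29 at 12 h, 124, 114 and 47 at 24 h, 310, 348 and 363 at 36 h, then 498, 287 and 349 at 48 h. Both 12 h libraries were below all others, the closest being the lowest at 24 h, and by 36 h the cells were back in the 0 h range or just above it. The step from 24 h to 36 h was 1.95 (SE 0.30, limma adjusted p = 0.0017). The tissue, at 126, was below every 0 h library.

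Scx, which encodes scleraxis, the transcription factor of tendon and ligament progenitors, fell and then overshot. Its scores were 195, 163 and 120 at 0 h, 13 and 20 at 12 h, 424, 296 and 59 at 24 h, 2063, 2103 and 1439 at 36 h, then 1143, 1224 and 571 at 48 h. All libraries from 36 h on were above all 0 h libraries and above the tissue (66), while those of 24 h spread on both sides of 0 h. It had the highest 48 h level against 0 h of all members, with a difference of 2.56, and a step from 24 h to 36 h of 3.23 (SE 0.56, limma adjusted p = 0.0029).

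The other 3 members that ended highest above 0 h moved in the same manner. Def6, a guanine nucleotide exchange factor, scored 284, 260 and 257 at 0 h, 42 and 75 at 12 h, 328, 417 and 443 at 24 h, 1052, 1015 and 703 at 36 h, then 1194, 1083 and 1205 at 48 h, a difference between 48 h and 0 h of 2.12. Tap1, a subunit of the transporter that loads peptides onto MHC class I, scored 171, 352 and 320 at 0 h, 35 and 48 at 12 h, 278, 327 and 352 at 24 h, 925, 936 and 674 at 36 h, then 1155, 865 and 819 at 48 h, a difference of 1.80. Mab21l3 scored 196, 95 and 91 at 0 h, 18 and 21 at 12 h, 152, 131 and 150 at 24 h, 482, 483 and 265 at 36 h, then 430, 313 and 381 at 48 h, a difference of 1.63. Without 0 h replicate 1 it did not meet the rule. In all 3 genes the 48 h libraries lay above all 0 h libraries and the 24 h libraries above both 12 h libraries. The limma steps from 24 h to 36 h were 1.21, 1.39 and 1.45 (adjusted p = 0.0024, 0.0034 and 0.0060).

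Ptprv and Narf, with higher 0 h scores than Pgf and Scx, were also among the 10 largest dips. Ptprv, a receptor-type tyrosine phosphatase that p53 is known to induce, scored 734, 1083 and 799 at 0 h, 132 and 88 at 12 h, 702, 754 and 1018 at 24 h, 2423, 2343 and 1497 at 36 h, then 2129, 2378 and 2935 at 48 h. Narf, which binds prelamin A in the nucleus, scored 2523, 2269 and 1680 at 0 h, 184 and 209 at 12 h, 957, 535 and 330 at 24 h, 1813, 1868 and 1691 at 36 h, then 1900, 1156 and 1141 at 48 h. Ptprv ended above its 0 h range, and the 48 h libraries of Narf lay partly below it. Their steps from 24 h to 36 h were 1.32 (SE 0.23) and 1.69 (SE 0.31), with limma adjusted p = 0.0027 and 0.0037.

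Exoc3l, Plcxd3 and Selenbp1, among the members lowest at 48 h against 0 h, ended at a small part of their 0 h score. Exoc3l scored 80, 137 and 96 at 0 h, 1 and 0 at 12 h, then 1, 5 and 4 at 48 h. Plcxd3 scored 141, 153 and 166 at 0 h, 7 and 0 at 12 h, then 0, 21 and 22 at 48 h. These pass the rule through differences of a few units, and Exoc3l had the largest fall of all members (-6.18) with a difference of -4.71 between 48 h and 0 h. Selenbp1, a selenium-binding protein, scored 166, 156 and 134 at 0 h, 6 and 1 at 12 h, 6, 3 and 11 at 24 h, 27, 27 and 37 at 36 h, then 14, 7 and 9 at 48 h, higher at 36 h than at the times around it. Arhgap27 and Nipal3, low-scoring members among the largest dips, came back further. Arhgap27, a GTPase-activating protein, scored 212, 269 and 182 at 0 h, 8 and 8 at 12 h, 7, 12 and 15 at 24 h, 23, 25 and 23 at 36 h, then 61, 53 and 45 at 48 h. The 24 h to 36 h step of Arhgap27 (1.06, limma adjusted p = 0.0206) was not called with 36 h replicates 1 and 2 as 1 replicate (adjusted p = 0.0651). Nipal3 scored 173, 130 and 106 at 0 h, 17 and 27 at 12 h, 14, 25 and 27 at 24 h, 89, 101 and 69 at 36 h, then 177, 98 and 100 at 48 h, so its 24 h libraries were no higher than those of 12 h while its 48 h libraries overlapped the 0 h range, and its 36 h minus 24 h difference was 1.96 (limma adjusted p = 0.0022).

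**Figure D4:**
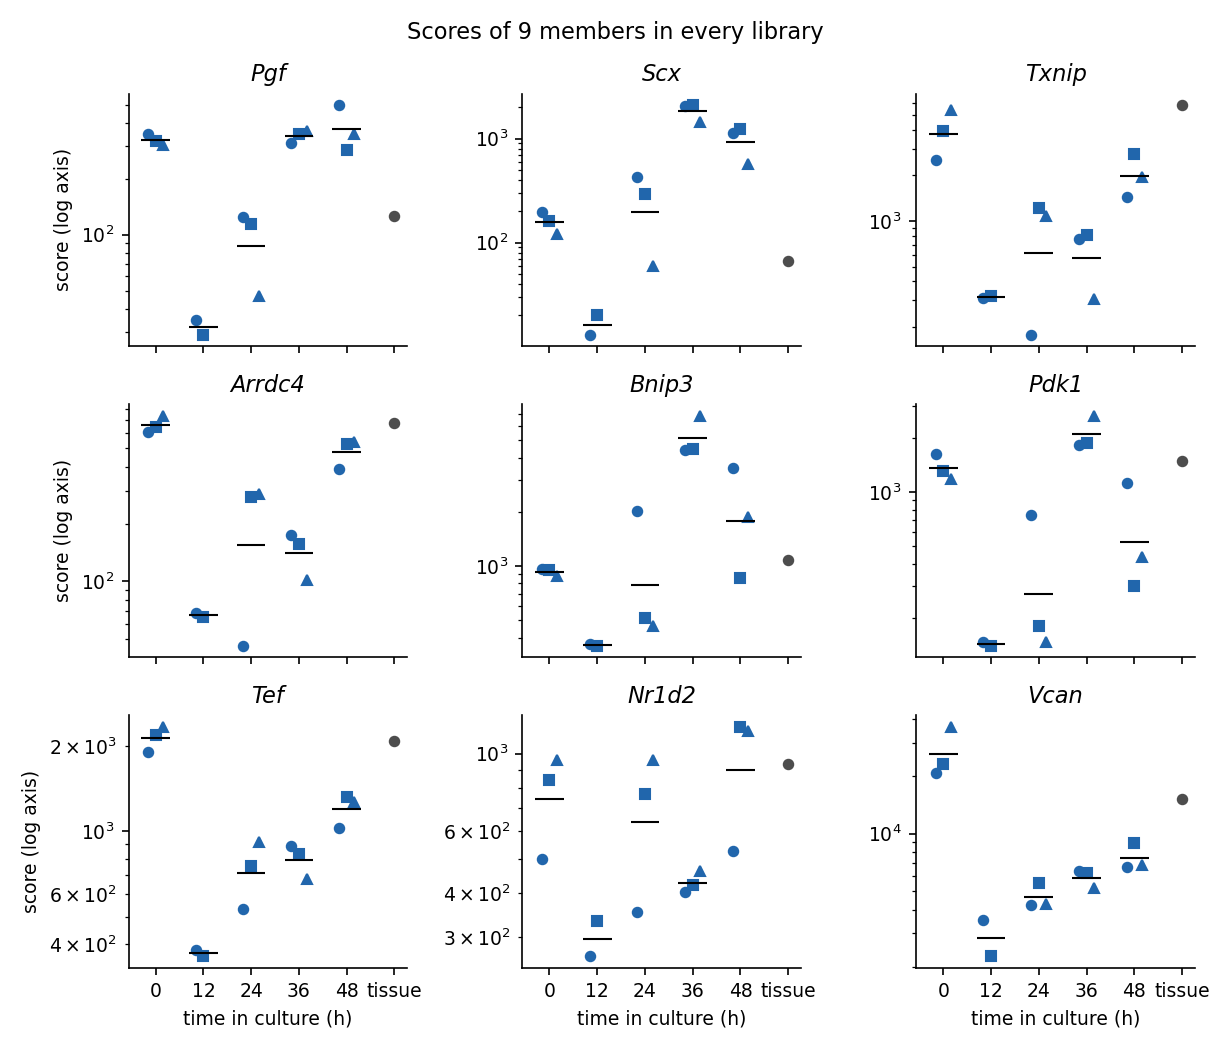
Scores (vertical axes, log scale) of 9 members in every library against time in culture in h (horizontal axes), with replicates 1, 2 and 3 as circles, squares and triangles, the tissue in grey and bars at the mean of log2(score + 1). Txnip and Arrdc4 have their lowest 24 h library in replicate 1, where Bnip3 and Pdk1 have their highest.

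Setting aside the interferon and lysosomal lists drawn up after the values were seen, the list with the most members was glycolysis and hypoxia, with 7 of the 34 that had the 0 h minimum (20.6%, beside 1.48% of all). The other lists too were chosen with earlier results of these data known, so the shares of members in every list are a description. The list had a median difference of -0.04 from 0 h to 12 h, with genes going both ways. By at least 1, 13 of its 37 measured genes fell over that step, beside 1496 of 12089 over all. Later medians over the list were 0.68 between 12 h and 48 h and 0.96 between 24 h and 36 h. Of its 37 measured genes limma called 8 higher and 13 lower at 12 h against 0 h at adjusted p below 0.05, beside 29.9% higher and 28.3% lower of all transcripts. At 48 h against 12 h it called 21 higher and 0 lower (21.2% and 21% of all), and at 36 h against 24 h 30 higher and 0 lower. The 0 h, 12 h and 48 h libraries chose the members, and the rule made the 7 members fall and rise. In this and the other lists, calls that use those libraries are therefore a description and no test of the dip. The 8 fell to 5 without 0 h replicate 2 or 12 h replicate 1, the 21 to 10 without 12 h replicate 1 and to 13 without 48 h replicate 1, and the 30, beside 10% of all, to 22 without 24 h replicate 3, beside 5.17%.

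Pdk1, the kinase that closes the gate from pyruvate to the citric acid cycle, had the largest dip of the list. Its scores were 1634, 1306 and 1186 at 0 h, 147 and 141 at 12 h, 742, 181 and 148 at 24 h, 1832, 1879 and 2648 at 36 h, then 1120, 303 and 435 at 48 h. The 36 h libraries were all above the 0 h range, and at 24 h and 48 h replicate 1 was well above the other replicates. Slc16a3, the lactate exporter MCT4, scored 988, 626 and 538 at 0 h, 241 and 278 at 12 h, 1743, 346 and 272 at 24 h, 4856, 4923 and 5665 at 36 h, then 4373, 582 and 1107 at 48 h. Replicate 1 again stood apart at 24 h and 48 h. Bnip3, a mitophagy receptor whose E-box promoter is shown above, scored 962, 945 and 876 at 0 h, 367 and 361 at 12 h, 2027, 515 and 465 at 24 h, 4396, 4495 and 6847 at 36 h, then 3512, 854 and 1870 at 48 h. From 24 h to 36 h these 3 genes had the steps 2.94, 3.23 and 2.71 (SE 0.54, 0.70 and 0.53), with limma adjusted p = 0.0037, 0.0086 and 0.0049.

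Ddit4, an inhibitor of mTORC1 that stress and low oxygen induce, came back sooner. It scored 931, 595 and 650 at 0 h, 161 and 257 at 12 h, 1033, 600 and 551 at 24 h, 2202, 2114 and 1835 at 36 h, then 2159, 1073 and 1444 at 48 h. The 24 h libraries already covered the 0 h range, and all later ones lay above it. Tpi1, triosephosphate isomerase and one of the 5 members highest at 0 h, scored 13284, 11063 and 11063 at 0 h, 3884 and 4995 at 12 h, 8938, 5332 and 4427 at 24 h, 17357, 18515 and 18515 at 36 h, then 15601, 9403 and 9403 at 48 h. Between 24 h and 36 h it rose by 1.61 (SE 0.24, limma adjusted p = 0.0013). The other members of the list, named after their values were seen, were the phosphofructokinase Pfkl, with a fall of -1.14 and a step from 24 h to 36 h of 1.78 (limma adjusted p = 0.0013), and the carbonic anhydrase Car12, whose step of 0.85 was not called (adjusted p = 0.159).

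Genes that FoxO factors keep on or that serum represses gave 5 members of 28 with the 0 h minimum (17.9%). Over the list the median difference was -0.97 at 12 h and 0.19 from 12 h to 48 h. Of its 29 measured genes limma called 17 lower and 4 higher at 12 h and, at 48 h against 12 h, 10 higher and 5 lower (3 without 12 h replicate 1 or 48 h replicate 2 or 3). The shares over all, higher and lower in turn, are those given for the hypoxia list, 29.9% with 28.3% and 21.2% with 21%. The rule made the 5 members fall and rise over these steps, so the counts are a description. From 24 h to 36 h limma called 10 higher and 1 lower (2 without 24 h replicate 1), where 10% and 9.64% of all transcripts were called. The arrestin-fold proteins Txnip, Arrdc4 and Arrdc3, of which Txnip and Arrdc4 are known to limit glucose uptake, were all members. Arrdc3 did not meet the rule without 12 h replicate 1 or 48 h replicate 1.

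Txnip scored 2513, 3897 and 5371 at 0 h, 310 and 321 at 12 h, 178, 1227 and 1074 at 24 h, 762, 805 and 304 at 36 h, 1435, 2752 and 1945 at 48 h, and 5821 in the tissue. Arrdc4 scored 607, 647 and 741 at 0 h, 68 and 65 at 12 h, 46, 277 and 286 at 24 h, 176, 157 and 102 at 36 h, then 388, 527 and 538 at 48 h, with 681 in the tissue. In both genes 24 h replicate 1 lay below the 12 h libraries while the other 24 h libraries lay above them, which is the library in which Pdk1, Slc16a3 and Bnip3 were highest at that time. Their steps from 24 h to 36 h were -0.11 (SE 0.62) and -0.13 (SE 0.52), with limma adjusted p = 0.92 and 0.89. Without 24 h replicate 1 the step of Txnip was -1.005 (limma adjusted p = 0.104) and that of Arrdc4 -0.99 (adjusted p = 0.0093), the latter a fall at the time when most members were higher. Without 24 h replicate 2 or 3 or 36 h replicate 3 the steps were above 0, at 0.29 to 0.38 for Txnip and 0.11 to 0.32 for Arrdc4, none of them called.

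Foxo3, one of the FoxO factors itself, dipped mildly. It scored 2426, 2705 and 3454 at 0 h, 1404 and 1066 at 12 h, 1906, 2003 and 2252 at 24 h, 3039, 3054 and 2940 at 36 h, then 3299, 2843 and 3008 at 48 h. It rose by 0.56 from 24 h to 36 h (SE 0.13, limma adjusted p = 0.0128). Arrdc3, named after its values were seen, scored 3496, 2743 and 3123 at 0 h, 610 and 763 at 12 h, 847, 872 and 1103 at 24 h, 1254, 1308 and 1122 at 36 h, then 2450, 1188 and 1147 at 48 h, so replicate 1 of 48 h came closest to the 0 h level. Its step from 24 h to 36 h was 0.39 (limma adjusted p = 0.26).

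Circadian clock genes gave 4 members of 16 with the 0 h minimum (25%). The list had a median difference of -0.46 at 12 h and 0.07 from 12 h to 48 h, and of its 19 measured genes limma called 4 higher and 9 lower at 12 h, beside the same shares over all. At 48 h against 12 h it called 9 higher and 2 lower (4 higher without 12 h replicate 1, and 5 without 12 h replicate 2), beside 21.2% and 21% of all. From 24 h to 36 h 3 were higher and 0 lower (10% and 9.64% of all), and between 1 and 5 were higher when 1 library was left out. The calls that use 0 h, 12 h or 48 h are a description, because the rule made the 4 members fall and rise.

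Tef and Dbp, PAR-domain leucine zipper factors that carry clock output, moved with different timing. Tef scored 1906, 2177 and 2338 at 0 h, 380 and 362 at 12 h, 533, 751 and 913 at 24 h, 887, 832 and 679 at 36 h, then 1023, 1320 and 1268 at 48 h, with 2075 in the tissue. Its mean rose at each time from 12 h on, and no cultured library reached the 0 h range. Dbp scored 133, 115 and 133 at 0 h, 23 and 28 at 12 h, 13, 12 and 16 at 24 h, 38, 60 and 27 at 36 h, then 75, 54 and 43 at 48 h. Dbp did not meet the rule without 12 h replicate 1 or 48 h replicate 1. Its lowest libraries were those of 24 h, and its step from 24 h to 36 h was 1.48 (SE 0.30, limma adjusted p = 0.0060), against 0.15 (SE 0.18, adjusted p = 0.58) for Tef.

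The clock repressor Nr1d2 scored 502, 843 and 960 at 0 h, 264 and 332 at 12 h, 353, 765 and 961 at 24 h, 403, 423 and 462 at 36 h, then 528, 1195 and 1157 at 48 h. At 24 h and 48 h its replicate 1 was the lowest library. Bhlhe40, a clock repressor that hypoxia also induces, scored 326, 1142 and 1630 at 0 h, 280 and 266 at 12 h, 721, 461 and 462 at 24 h, 988, 924 and 1442 at 36 h, then 713, 706 and 917 at 48 h. Its 0 h replicate 1 was close to the 12 h libraries, and at 24 h replicate 1 was the highest. Neither step from 24 h to 36 h was called (limma -0.57 and 1.03, adjusted p = 0.30 and 0.12).

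**Figure D5:**
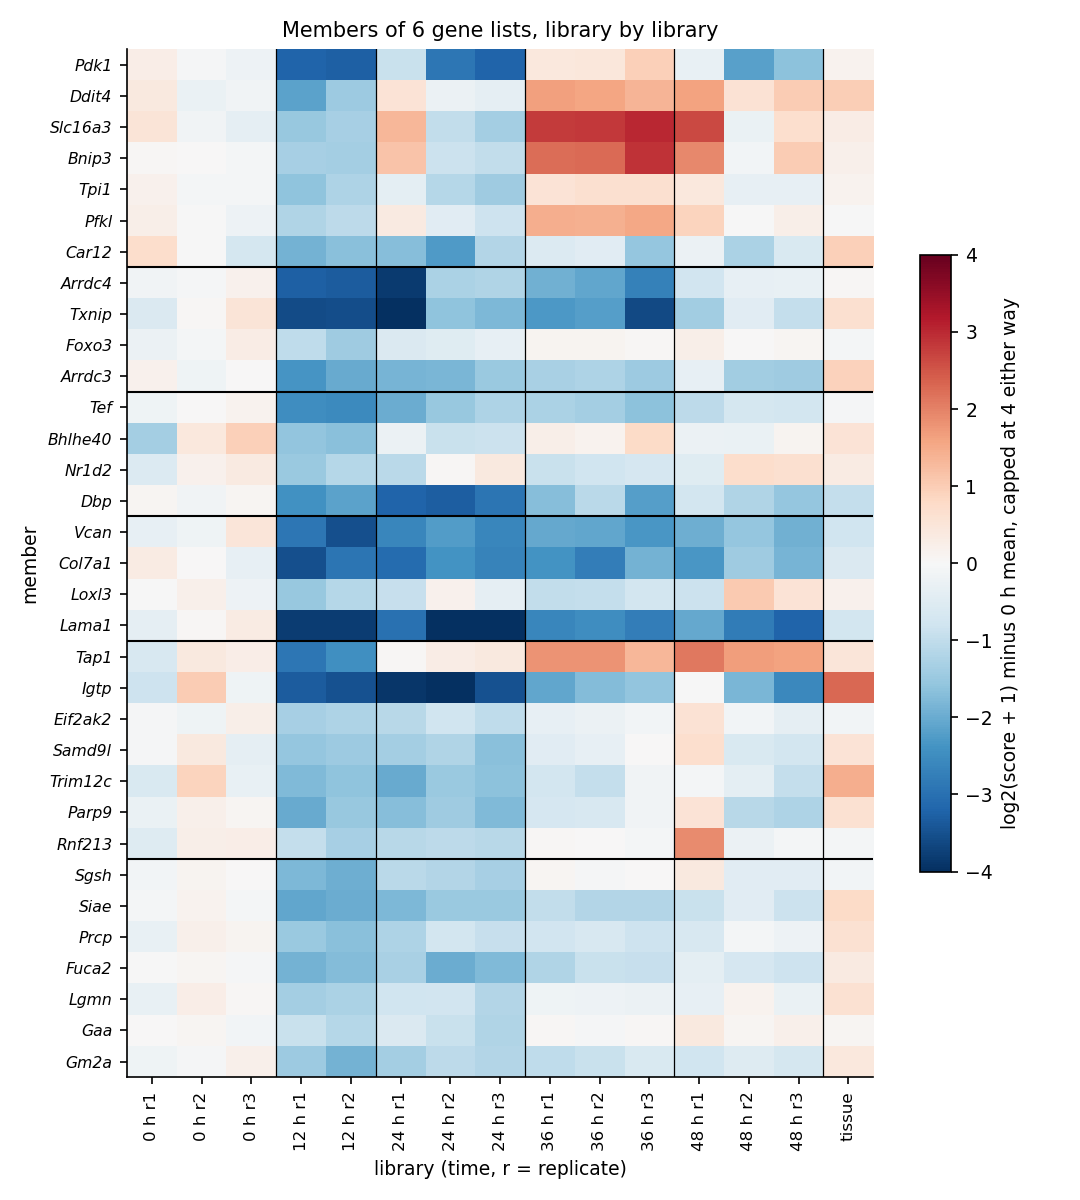
Difference of log2(score + 1) from the 0 h mean (colour, capped at 4 either way) for members of 6 gene lists (rows, with Bnip3 of the FoxO list shown among the hypoxia genes) in each library (columns; r is the replicate number). Blocks from the top are glycolysis and hypoxia, FoxO and serum-repressed, clock, extracellular matrix, interferon response and lysosomal enzymes, and 24 h and 48 h replicate 1 are redder than the other replicates of those times for Pdk1, Slc16a3 and Bnip3.

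Extracellular matrix genes gave 4 members of 69 with the 0 h minimum (5.80%). Over the list the median differences were -0.43 at 12 h and -0.22 from 12 h to 48 h. Of 73 measured genes limma called 30 lower and 19 higher at 12 h, 21 lower and 12 higher at 48 h against 12 h, and 11 higher and 2 lower at 36 h against 24 h (10% and 9.64% of all; 3 to 24 higher when 1 library was left out, with 3 without 24 h replicate 3 and 24 without 24 h replicate 1). Without 12 h replicate 1, 13 were lower at 48 h against 12 h. Over all transcripts 28.3% were lower and 29.9% higher at 12 h, then 21% lower and 21.2% higher at 48 h. Calls that use 0 h, 12 h or 48 h are again a description. Of the 4 members, 3 remained at least 1 below 0 h at 48 h, with differences of -1.81 for Vcan, -1.87 for Col7a1 and -2.67 for Lama1.

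Vcan, the hyaluronan-binding proteoglycan versican, was the most abundant of them. It scored 20924, 23247 and 36428 at 0 h, 3520 and 2275 at 12 h, 4229, 5487 and 4281 at 24 h, 6335, 6211 and 5165 at 36 h, 6704, 8961 and 6818 at 48 h, and 15128 in the tissue. All cultured libraries lay below the tissue and the 0 h range. Col7a1, the collagen of anchoring fibrils, scored 1234, 990 and 779 at 0 h, 85 and 130 at 12 h, 115, 186 and 155 at 24 h, 186, 144 and 265 at 36 h, then 195, 370 and 270 at 48 h. Lama1, a laminin chain of early basement membranes, scored 881, 1156 and 1414 at 0 h, 81 and 81 at 12 h, 141, 67 and 66 at 24 h, 185, 203 and 165 at 36 h, then 274, 162 and 123 at 48 h. For Lama1 the 36 h minus 24 h difference (1.09, limma adjusted p = 0.0299) was not called with 36 h replicates 1 and 2 as 1 replicate (adjusted p = 0.0908). Loxl3, a lysyl oxidase of collagen crosslinking, differed from these, with 1119, 1309 and 974 at 0 h, 392 and 509 at 12 h, 600, 1277 and 870 at 24 h, 574, 582 and 669 at 36 h, then 623, 2302 and 1628 at 48 h, and its replicate 1 was the lowest library of both 24 h and 48 h.

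Has2, the synthase of the hyaluronan that versican binds, was also a member, though on no list, and is named after its values were seen. It scored 5002, 5285 and 3969 at 0 h, 825 and 991 at 12 h, 1147, 1209 and 1362 at 24 h, 1677, 1658 and 1739 at 36 h, then 2180, 2031 and 2079 at 48 h. The libraries of successive times from 12 h on did not overlap and remained below 0 h. Between 24 h and 36 h Has2 rose by 0.45 (limma adjusted p = 0.0143, and 0.0501 without 24 h replicate 2). Sulf2, an enzyme that trims heparan sulphate, returned fully, with 4340, 4136 and 5154 at 0 h, 1983 and 1563 at 12 h, 2541, 2573 and 3167 at 24 h, 5332, 4995 and 4403 at 36 h, then 5111, 4894 and 4697 at 48 h. Serpine2, a secreted protease inhibitor, did likewise, with 2884, 3628 and 3118 at 0 h, 849 and 758 at 12 h, 886, 970 and 1136 at 24 h, 2496, 2247 and 1243 at 36 h, then 3009, 2958 and 3693 at 48 h. Crabp2, a carrier of retinoic acid, returned in part, with 2607, 2288 and 2222 at 0 h, 343 and 454 at 12 h, 765, 344 and 456 at 24 h, 1228, 1271 and 1037 at 36 h, then 1259, 992 and 941 at 48 h. These 3 genes, likewise on no list and picked after their values were seen, had steps from 24 h to 36 h of 0.83, 0.94 and 1.25 (limma adjusted p = 0.0012, 0.0099 and 0.0039).

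Among the signalling lists, axon guidance gave 3 of 55 (5.45%, beside 1.48% of all), the semaphorins Sema3b and Sema7a and the ephrin Efna3. Sema7a was the 1 member called lower at 36 h, with 369, 620 and 339 at 0 h, 38 and 37 at 12 h, 81, 198 and 183 at 24 h, 35, 49 and 59 at 36 h, then 101, 56 and 144 at 48 h. Its step from 24 h to 36 h was -1.60 (SE 0.39, limma adjusted p = 0.0151), and it was not called with 36 h replicates 1 and 2 as 1 replicate (adjusted p = 0.0548) or without 24 h replicate 2 or 3 or 36 h replicate 1 (adjusted p = 0.0635, 0.0648 and 0.0657). Efna3 moved the other way over the same step, by 1.74 (SE 0.37, limma adjusted p = 0.0079), and scored 255, 230 and 233 at 0 h, 41 and 48 at 12 h, 32, 26 and 63 at 24 h, 173, 171 and 70 at 36 h, then 177, 123 and 102 at 48 h. Sema3b scored 249, 403 and 164 at 0 h, 24 and 24 at 12 h, 96, 56 and 25 at 24 h, 121, 100 and 54 at 36 h, then 49, 91 and 103 at 48 h, below the 0 h range at every time in culture.

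The Wnt pathway gave 2 members of 46 (4.35%, beside 1.48% of all), and only Fzd10 met the rule without 0 h replicate 2 or 12 h replicate 1. Fzd10, a Wnt receptor, scored 467, 573 and 492 at 0 h, 9 and 12 at 12 h, 14, 17 and 24 at 24 h, 58, 68 and 41 at 36 h, then 63, 45 and 56 at 48 h, and the tissue scored 339. It stayed far below the 0 h range, with a step from 24 h to 36 h of 1.55 (SE 0.25, limma adjusted p = 0.0022). Notum, an enzyme that inactivates Wnt ligands, scored 70, 175 and 87 at 0 h, 3 and 5 at 12 h, then 7, 15 and 12 at 48 h. In the BMP and TGF-beta list (1 of 47) the member was Bmper, a BMP-binding secreted protein, with 1561, 1728 and 1421 at 0 h, 479 and 504 at 12 h, 843, 1008 and 652 at 24 h, 1108, 1131 and 1432 at 36 h, then 1377, 1168 and 1025 at 48 h. Its step from 24 h to 36 h was 0.56 (limma adjusted p = 0.0273), and 0.62 with adjusted p = 0.0543 when 36 h replicates 1 and 2 counted as 1.

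Primary cilium genes gave 2 of 51 (3.92%, beside 1.48% of all), and 5 met the rule without 12 h replicate 2 and 4 without 48 h replicate 1. Dync2li1, a light intermediate chain of the ciliary dynein, scored 265, 302 and 249 at 0 h, 54 and 61 at 12 h, 75, 88 and 66 at 24 h, 121, 118 and 112 at 36 h, then 131, 152 and 119 at 48 h. The BBSome subunit Bbs4 scored 230, 214 and 198 at 0 h, 88 and 107 at 12 h, 118, 172 and 217 at 24 h, 224, 223 and 217 at 36 h, then 307, 237 and 200 at 48 h. Dync2li1 stayed below the 0 h range and Bbs4 returned to it. The step of Dync2li1 from 24 h to 36 h (0.62, limma adjusted p = 0.0160) was not called with 36 h replicates 1 and 2 as 1 (adjusted p = 0.0596). The list of cell cycle inhibitors and p53 targets (1 of 21) held Btg2, an antiproliferative gene that p53 and serum both induce. It scored 4065, 10466 and 17403 at 0 h, 1253 and 1375 at 12 h, 2774, 2388 and 1873 at 24 h, 5082, 5082 and 4193 at 36 h, then 4255, 3560 and 3497 at 48 h, and its 0 h libraries spread more widely than those of any other time. Zfp219 was the 1 member among 296 Zfp zinc finger genes, with 996, 722 and 754 at 0 h, 371 and 348 at 12 h, 510, 465 and 442 at 24 h, 965, 978 and 1001 at 36 h, then 1102, 926 and 940 at 48 h, and its step from 24 h to 36 h was 1.06 (SE 0.12, limma adjusted p = 0.00035).

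No member came from the lists of mitosis (67 genes with the 0 h minimum), DNA replication (51), Hedgehog (17), Notch (22), FGF (32), dental mesenchyme transcription factors (40), AP-1, Egr and Klf factors (26), RNA splicing (81), chromatin modifiers (96), cholesterol synthesis (34), contractile genes (26), integrins and cadherins (33) or the respiratory chain (76). With a share of 1.48% over all transcripts, a list of such a size holds about 1 member or none, so nothing is read from the 0 in each. In the mitosis list limma called 48 of 67 genes lower and 3 higher at 12 h (28.3% and 29.9% of all), and 23 higher and 1 lower at 48 h against 12 h (21.2% and 21% of all). The 23 became 9 without 12 h replicate 1, 11 without 48 h replicate 2 and 13 without 48 h replicate 3, and the 1 became 0 to 3 when 1 library was left out. The one member among the epithelial markers was the keratin Krt8, with 400, 26 and 26 at 0 h and 14 and 16 at 12 h. It met the rule only through 0 h replicate 1, and dropped out without that library, in which the summed epithelial score was the highest (0 h range 1408 to 13483, with 8 of 14 markers measured).

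Interferon-inducible genes stood out among the members by their names, and a list of them was drawn up after the values were seen, so its counts are a description. It held 8 members of 29 with the 0 h minimum (27.6%), with list medians of -1.03 at 12 h, 0.64 between 12 h and 48 h and 0.63 between 24 h and 36 h. Besides Tap1 these included Igtp, Eif2ak2, Samd9l, Trim12c, Parp9 and Rnf213. Rnf213, a large ubiquitin ligase, reached 1669 in 48 h replicate 1 and 383 and 426 in the other 48 h libraries. Without 48 h replicate 1 only 4 genes of the list met the rule, without 0 h replicate 2 only 5, and 3 of the 8 were kept under all 8 omissions. Igtp, an interferon-inducible GTPase, scored 49, 178 and 79 at 0 h, 8 and 7 at 12 h, 5, 1 and 7 at 24 h, 20, 26 and 29 at 36 h, then 87, 24 and 14 at 48 h, where replicate 1 was again the highest, and 442 in the tissue. Its step from 24 h to 36 h was 2.49 (SE 0.68, limma adjusted p = 0.0232, and 0.0640 with 36 h replicates 1 and 2 as 1).

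Lysosomal enzymes were listed in the same way, after the values were seen, and gave 7 members of 54 (13.0%), with list medians of -0.29, 0.82 and 0.57 for the same steps. The members were Sgsh, Siae, Prcp, Fuca2, Lgmn, Gaa and Gm2a. Gaa, the glucosidase that degrades lysosomal glycogen, scored 1958, 2013 and 1800 at 0 h, 1036 and 864 at 12 h, 1288, 1030 and 828 at 24 h, 2001, 1862 and 1974 at 36 h, then 2540, 2021 and 2233 at 48 h. Sgsh, the sulphamidase of heparan sulphate breakdown, scored 144, 169 and 158 at 0 h, 44 and 40 at 12 h, 74, 69 and 62 at 24 h, 166, 152 and 160 at 36 h, then 205, 115 and 115 at 48 h. Both lay within the 0 h range at 36 h, with steps from 24 h of 0.91 and 1.21 (SE 0.14 and 0.20, limma adjusted p = 0.0015 and 0.0025). Of the 7, 5 were kept under all 8 omissions.

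The remaining members of highest abundance were Rplp0 and Calm2. Rplp0, a protein of the ribosomal stalk, scored 70714, 70714 and 127101 at 0 h, 31886 and 36428 at 12 h, 50508 in all 24 h libraries, 50508, 50508 and 36428 at 36 h, then 70714 in all 48 h libraries. Such repeated values are the highest ranks of the common scale, so a step between them is a change of rank. Calm2, one of the calmodulin genes, which share near-identical coding sequence, scored 13296, 13670 and 7504 at 0 h, 4145 and 6092 at 12 h, 10453, 8952 and 6326 at 24 h, 14391, 12083 and 12083 at 36 h, then 13296, 10099 and 9415 at 48 h. Its step from 24 h to 36 h was 0.61 (limma adjusted p = 0.0997, and 0.0404 with the replicate number as a block). Pathway lists held 29 of the 160 members, the epithelial marker list 1 more (Krt8) and the interferon and lysosomal lists another 15, and 115 members were on none.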

How the data were processed

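RNA-seq was measured in 15 libraries. The authors trimmed adaptors, mapped reads with bowtie to mouse transcripts of the Ensembl annotation (mm10), quantified them by RSEM (for which the labels and the methods give different versions) and called genes with DESeq2. The deposited values are scores, whole numbers that share 1 distribution over all libraries, with totals between 21357605 and 21365980. They are neither counts nor CPM. The step that made them is not given in the sources used here, the depth is unknown, and changes of total RNA do not show.

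Transcripts were matched to GENCODE genes (GRCm38), with 11973 of 12089 matched. Tests used limma 3.58.1 with an intensity trend on log2(score + 1), 14 libraries, 1 mean per time point and the 12079 transcripts that reached 1 ppm of a library's total in 2 or more libraries. Benjamini-Hochberg adjustment ran over all of them. Fold changes on this scale understate changes of low scores. The fit was tested on simulated data.

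The members and lists were chosen with earlier results of these data known. Genes were named by the largest dips (10), the highest 0 h means (5), up to 4 per list, up to 5 called in each direction from 24 h to 36 h, the 3 on each side of the threshold, and the 4 highest and 4 lowest at 48 h against 0 h. Has2, Sulf2, Serpine2, Crabp2, Arrdc3, Pfkl, Car12, Ecscr, Cd34, Gja5 and members of the interferon and lysosomal lists were named after their values were seen. Replicate numbers come from the labels. Deviations of same-numbered 24 h and 36 h libraries correlated at 0.126 to 0.165, those of other numbers at -0.120 to -0.048, so the numbers may pair these libraries. For 24 h with 48 h the values were 0.200 to 0.315 and -0.323 to 0.035. The 24 h libraries may thus share replicate effects with the 48 h libraries that chose the members. Over all times, same-numbered libraries correlated at -0.245 to 0.319. The main fit ignored any pairing, and a block was only an alternative. Alternatives were other pseudocounts, filters, scaling, thresholds, a replicate block and each replicate left out. A result for 1 member is not reported here.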

Additional observations from a re-analysis of the deposited data

How the results depend on the processing

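The number of members was 160, and 249 or 105 with a threshold of 0.8 or 1.2. It lay between 108 and 201 under the other pseudocounts, summaries, scaling and 0 h minimums, and between 146 and 185 when 1 library was left out. Requiring 10 ppm or more in each of the 14 libraries left 42 members tested from 24 h to 36 h, which removed members that were low at 12 h. At the study threshold 13 were then higher and 0 lower (0.711% and 0.312% of all transcripts so tested), and at the adjusted p 28 were higher and 0 lower (10.1% and 10.4%). The 2 members lower at the study threshold became 1 with the 24 h and 36 h libraries only, with a pseudocount of 0.1 or with no trend, and 1 to 5 when 1 library was left out. The 1 lower at the adjusted p became 0 with 36 h replicates 1 and 2 as 1 replicate, an alternative chosen after seeing the data, and 0 to 2 when 1 library was left out. The 87 higher lay between 63 and 81 when 1 library was left out, where 5.17% to 10.9% of all transcripts were higher. The median share of the rise reached at 24 h was 45.0% without 24 h replicate 3, and 38.2% to 45.0% over the omissions. With the replicate number as a block, 58 members were higher and 3 lower at the study threshold (2.48% and 1.83% of all), and 88 higher and 1 lower at the adjusted p (10.7% and 9.93%), and of the named members only Calm2 changed its call. Over all alternatives but the one chosen after seeing the data, 685 of 723 values of 54 named members kept direction and call, 26 lost and 5 gained a call, and 7 uncalled values turned direction, over 14 genes in all. The steps that turned, when 1 library was left out, lay between -1.005 and 0.38 for Txnip, -0.99 and 0.32 for Arrdc4, and -0.060 and 0.33 for Tef. With 1 library left out, limma no longer called Arhgap27 (without 24 h replicate 1 or 36 h replicate 1 or 2), Bmper (without 24 h replicate 3 or any of 36 h), Lama1 (without any of these but 24 h replicate 1), Dync2li1 (without 24 h replicate 3 or 36 h replicate 1 or 2), Igtp (without 24 h replicate 2 or any of 36 h), nor Sema7a and Has2. Outside leave-outs, Btg2, Bhlhe40 and Arrdc3 were called with the 24 h and 36 h libraries only (adjusted p = 0.00735, 0.0227 and 0.0499), Arhgap27 and Bmper were not (0.0504 and 0.0560), and Igtp was not with a pseudocount of 10 (0.0735). The cause was not tested. The scores give no depth, so no counting error can be attached to low values, and 2 libraries at 12 h carry every fall.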
